A study of Mus musculus with 6 samples.

Results

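MHC class II molecules carry peptides from proteins taken up by a cell to its surface, where CD4+ T cells read them, and macrophages are among the cells that present in this way. The genes described here are 9 of the 55291 genes in the count table: Cd74, H2-Aa, H2-Ab1, H2-Eb1, Ciita, H2-DMa, H2-DMb1, H2-DMb2 and H2-Oa. They were found in the table by symbol, and they had been chosen from earlier seen values of these libraries in WT and PYK2 KO macrophages, so the difference between genotypes is given for them as a description. Calls and intervals from the fit over all genes are printed for orientation, with no p-value, and are not independent evidence of a difference. The libraries were made from bone marrow-derived macrophages (BMDMs), primary macrophages grown in culture, of 3 WT and 3 PYK2 KO mice of the C57BL/6 strain, with one library per mouse. PYK2 KO mice carry a constitutive deletion (PYK2-/-) of the non-receptor tyrosine kinase PYK2, so every cell of the animal lacks it and not only the macrophages. All cultures were grown for 7 days with medium conditioned by L929 cells as the source of M-CSF, and the age of the mice whose marrow was used is not given in the sources used here.

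In the class II pathway an α and a β chain (H2-Aa with H2-Ab1 for I-A) assemble in the endoplasmic reticulum with the invariant chain CD74, which fills the groove and directs the complex to endosomes. Proteases there trim CD74 to a short peptide called CLIP, H2-M (H2-DMa with H2-DMb1 or H2-DMb2) exchanges CLIP for other peptides, and H2-O (H2-Oa with H2-Ob) restrains H2-M. CIITA, the product of Ciita, does not bind DNA itself and is recruited to class II promoters by a complex of RFX, CREB and NF-Y proteins that sits on the X and Y boxes. Macrophages hold little CIITA until interferon gamma induces it.

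Promoter stretches are shown for H2-Aa and H2-Eb1, which were lower in PYK2 KO BMDMs, and for H2-DMa and H2-DMb1, whose values overlapped between genotypes. RefSeq promoter windows (GRCm38.p6, from 250 bases before to 50 bases after the annotated start) were matched by symbol for 6 of the 9 genes, H2-Aa, H2-Eb1, H2-DMa, H2-DMb1, H2-DMb2 and H2-Oa, with 2 windows for H2-DMa. Both windows of H2-DMa lie downstream of 34119541, where GENCODE M21 starts that gene, and the window of H2-DMb2 lies downstream of its start at 34143307. The motifs of H2-DMb1 also lie downstream of its GENCODE start, at 34153072, so the windows of these genes may not hold the promoter used in these cells. Each line gives 100 bases, from 125 to 26 bases before the start, 5′ to 3′ on the strand of the gene. Capitals mark the letters of a Y box (TGATTGG), the core of an X box (AACNNNTGA) or a cAMP response element (TGACGTCA), all searched on both strands.
H2-Aa, chr17:34287849-34287948, minus strand: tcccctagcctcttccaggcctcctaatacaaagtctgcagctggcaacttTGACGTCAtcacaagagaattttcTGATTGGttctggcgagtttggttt
H2-Eb1, chr17:34305742-34305841, plus strand: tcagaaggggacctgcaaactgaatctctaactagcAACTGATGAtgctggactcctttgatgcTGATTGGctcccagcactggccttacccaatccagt
H2-DMb1, chr17:34153066-34153165, plus strand: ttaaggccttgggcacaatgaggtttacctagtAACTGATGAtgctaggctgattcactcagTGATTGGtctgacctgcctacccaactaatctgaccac
H2-DMa, chr17:34122707-34122806, plus strand: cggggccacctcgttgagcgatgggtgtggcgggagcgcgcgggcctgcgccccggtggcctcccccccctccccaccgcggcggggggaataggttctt

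H2-Eb1 and H2-DMb1 carried the same letters, AACTGATGA, at the X box core, followed by a Y box that began 28 bases further on in H2-Eb1 and 29 bases further on in H2-DMb1. H2-DMb2 had the pair at the same spacing of 29 bases as H2-DMb1. In H2-Aa a cAMP response element began 24 bases before the Y box, close to the place that the X box core holds in those genes. The letters AAC also stood just before that element, but with fewer bases between AAC and TGA than the searched pattern has. H2-Aa was therefore not counted as holding the X box core. A Y box alone was found in H2-Oa, and none of the 3 motifs was found in the 2 windows of H2-DMa. Thus 5 of the 6 genes held a Y box and 3 held the Y box and the X box core at the length searched. Among all 32851 windows of 300 bases, 7.82% held the Y box, 11.9% the X box core, 1.79% the cAMP response element, and 0.950% the Y box and the X box core together. These motifs were chosen with the sequences in view, and a match of letters does not show that a protein binds. Whether these letters have a part in the values given below was not tested.

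The 6 libraries held between 2857097 and 3917207 counts. After normalization, Ptk2b, the gene of PYK2, was at 194.5 ± 5.63 CPM (SD, n = 3 mice; CPM scales a count by the total of the tested genes in its library) across the WT libraries. It was at 21.8 ± 1.14 CPM (SD, n = 3 mice) across the PYK2 KO libraries, which is 11.2% of the former. Of the 10 macrophage markers, all 10 were measured in every library, among them Lyz2, Cd68, Csf1r and Itgam. Of 9815 genes with enough counts for a test, 25 (0.255%) were called between genotypes by edgeR's quasi-likelihood test at a Benjamini-Hochberg adjusted p under 0.05, and 14 (0.143%) of them were lower in PYK2 KO BMDMs. B2m, the light chain of MHC class I, parted the libraries in another way than genotype, with 971 CPM or more in WT 1, PYK2 KO 3 and PYK2 KO 4 and at most 523 CPM in WT 5, WT 6 and PYK2 KO 2. Values of the class II genes are therefore also given on each side of that split.

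Cd74, H2-Aa, H2-Ab1 and H2-Eb1 stood lower in PYK2 KO BMDMs, at 59.0% to 66.0% of the WT level, while the H2-M chains H2-DMa and H2-DMb1 stood at 101% and 102% of it. Of the 9 genes, 6 passed the filter on low counts, and Ciita, H2-DMb2 and H2-Oa did not. Cd74, H2-Aa and H2-Ab1 were among the 25 called genes, as 3 of the 6 tested, all lower, and H2-Eb1, H2-DMa and H2-DMb1 were not. In 4 of the 6 the PYK2 KO values lay entirely below the WT values, which was the case for 5.07% of all tested genes. Without PYK2 KO 2, and likewise without PYK2 KO 4, only Cd74 of these genes was called, and without WT 5 H2-Ab1 was not. Because the genes were chosen on this same difference, nothing is read from these shares.

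**Figure D1:**
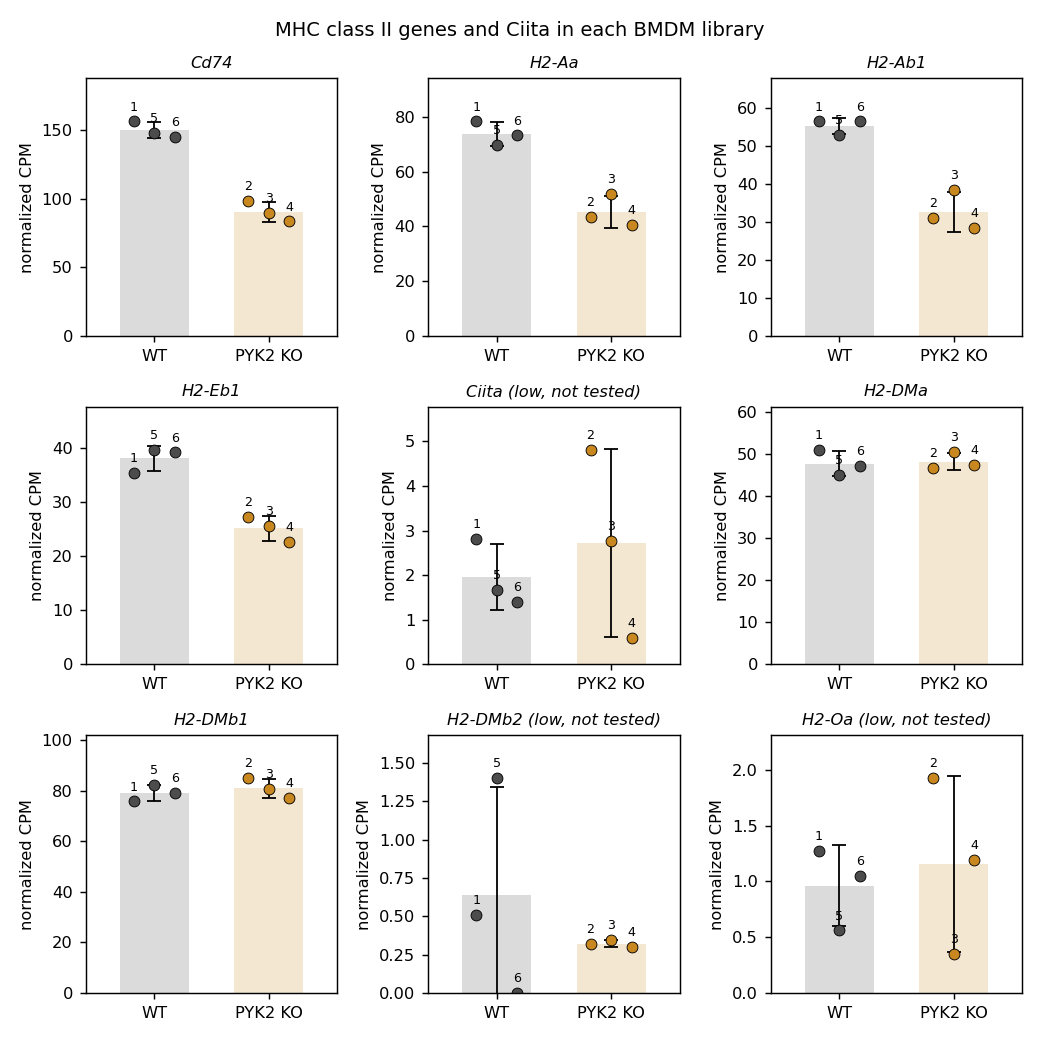
Normalized CPM (vertical axis, linear, from 0) of the 9 genes in WT and PYK2 KO BMDMs. Points are single libraries with the replicate number beside them, bars are means and whiskers SD (n = 3 mice). The PYK2 KO points lie below all WT points for Cd74, H2-Aa, H2-Ab1 and H2-Eb1 and overlap them for the other genes.

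Cd74 encodes the invariant chain and lies outside the MHC, on chromosome 18 from 60803848 to 60812652 on the plus strand (GENCODE M21, GRCm38). It had 612, 529 and 414 counts in WT 1, 5 and 6 and 306, 259 and 280 counts in PYK2 KO 2, 3 and 4. Normalized, these were 156, 148 and 145 CPM in WT and 98.2, 89.7 and 83.5 CPM in PYK2 KO BMDMs. The lowest WT library was well above the highest PYK2 KO library, and within each genotype the libraries differed little. The means were 150 ± 5.79 and 90.4 ± 7.39 CPM (SD, n = 3 mice each). The log2 fold change, PYK2 KO relative to WT, was -0.73 (95% interval -0.92 to -0.54).

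H2-Aa encodes the α chain of I-A, and its gene spans chromosome 17 from 34282744 to 34287823, minus strand. Its counts were 307, 249 and 209 in WT 1, 5 and 6 against 136, 150 and 136 in PYK2 KO 2, 3 and 4, which gave 78.4, 69.7 and 73.3 CPM against 43.6, 52.0 and 40.5 CPM. WT 1 was the highest library and PYK2 KO 4 the lowest, and the genotypes did not overlap. The means were 73.8 ± 4.38 and 45.4 ± 5.91 CPM (SD, n = 3 mice each), with a log2 fold change of -0.71 (95% interval -0.95 to -0.47).

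H2-Ab1 encodes the β chain that pairs with it, and its gene lies on chromosome 17 from 34257689 to 34269419 on the plus strand. The WT libraries 1, 5 and 6 had 221, 189 and 161 counts, or 56.4, 52.9 and 56.4 CPM. The PYK2 KO libraries 2, 3 and 4 had 97, 111 and 95 counts, or 31.1, 38.4 and 28.3 CPM. As for H2-Aa, PYK2 KO 3 was the highest of its genotype and still lay below every WT library. The means were 55.3 ± 2.04 and 32.6 ± 5.23 CPM (SD, n = 3 mice each) and the log2 fold change was -0.77 (95% interval -1.04 to -0.49).

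H2-Eb1 encodes the β chain of I-E, and lies on chromosome 17 from 34305867 to 34316674 on the plus strand. Its counts of 139, 142 and 112 in WT 1, 5 and 6 and 85, 74 and 76 in PYK2 KO 2, 3 and 4 corresponded to 35.5, 39.7 and 39.3 CPM and to 27.3, 25.6 and 22.7 CPM. The genotypes did not overlap here either, although the gap between WT 1 and PYK2 KO 2 was narrower than for the other 3 genes. The means were 38.2 ± 2.32 and 25.2 ± 2.34 CPM (SD, n = 3 mice each). The log2 fold change of -0.60 (95% interval -0.88 to -0.31) was not called over all genes. H2-Ea, the α chain that pairs with H2-Eb1 and whose promoter is deleted in mice of the C57BL/6 haplotype, had 0 counts in all 6 libraries.

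The log2 fold changes of these 4 genes had a median of -0.72, beside 0.0019 for all tested genes, and this follows from how the genes were chosen. The ratio of H2-Aa to H2-Ab1 counts was 1.39, 1.32 and 1.30 in WT 1, 5 and 6 and 1.40, 1.35 and 1.43 in PYK2 KO 2, 3 and 4, ranges that overlapped. The ratio of Cd74 to H2-Aa and H2-Ab1 together was 1.16 ± 0.0445 in WT and 1.17 ± 0.164 in PYK2 KO cells (SD, n = 3 mice each), and that of H2-Eb1 to H2-Ab1 was 0.692 ± 0.0613 and 0.781 ± 0.106 (SD, n = 3 mice each), where PYK2 KO 2 and 4 lay above every WT library and PYK2 KO 3 among them. Among the PYK2 KO libraries, number 3 had the lowest ratio of Cd74 to the I-A chains (0.992) and number 2 the highest (1.31).

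The values of the H2-M chains overlapped between genotypes. H2-DMa (chromosome 17, 34119541 to 34139101, plus strand) had 200, 161 and 135 counts in WT 1, 5 and 6 and 146, 146 and 159 in PYK2 KO 2, 3 and 4, or 51.1, 45.1 and 47.3 CPM and 46.8, 50.6 and 47.4 CPM. H2-DMb1 (chromosome 17, 34153072 to 34160230, plus strand) had 297, 294 and 226 counts in WT and 265, 233 and 259 in PYK2 KO BMDMs, or 75.8, 82.3 and 79.2 CPM and 85.0, 80.7 and 77.2 CPM. WT 1 was the highest library for H2-DMa and the lowest for H2-DMb1, and neither gene parted the genotypes. The log2 fold change was 0.01 (95% interval -0.22 to 0.25) for H2-DMa and 0.03 (95% interval -0.16 to 0.23) for H2-DMb1. The ratio of H2-DMa to H2-DMb1 was 0.606 ± 0.0633 in WT and 0.597 ± 0.0405 in PYK2 KO cells (SD, n = 3 mice each).

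**Figure D2:**
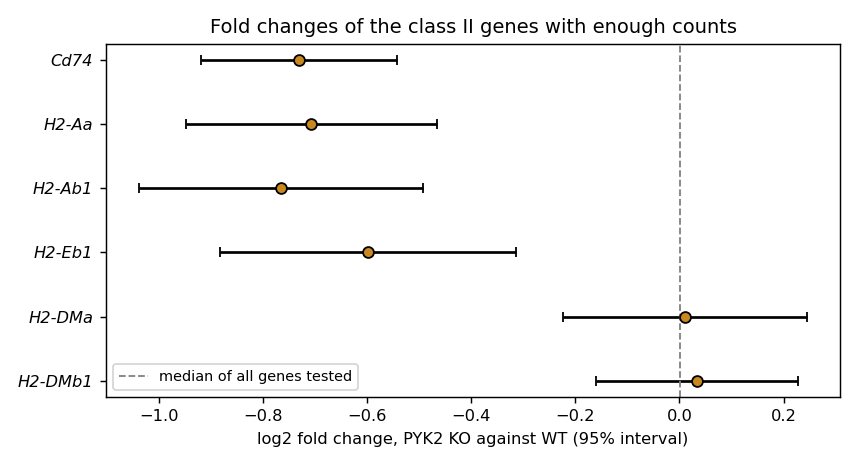
Log2 fold change of PYK2 KO against WT BMDMs (horizontal axis) for the 6 genes that passed the filter on low counts. Points are the edgeR estimates, whiskers their 95% intervals, and the dashed line is the median of all tested genes. Cd74, H2-Aa, H2-Ab1 and H2-Eb1 lie between -0.77 and -0.60, and H2-DMa and H2-DMb1 lie at 0.01 and 0.03.

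The balance between these 2 groups can be read within each library, where it does not depend on normalization. Counts of Cd74, H2-Aa, H2-Ab1 and H2-Eb1 summed to 2.57, 2.44 and 2.48 times those of H2-DMa and H2-DMb1 in WT 1, 5 and 6, and to 1.52, 1.57 and 1.40 times in PYK2 KO 2, 3 and 4. Every PYK2 KO library had a lower ratio than every WT library, and the means were 2.50 ± 0.0694 and 1.50 ± 0.0836 (SD, n = 3 mice each). The genes were placed in the 2 groups by these same values, so this separation follows from the grouping and is a description. The summed level of the 4 genes was 317 ± 8.51 CPM in WT against 194 ± 16.4 CPM in PYK2 KO cells, or 61.1% of WT, while that of the H2-M chains was 126.9 ± 0.414 and 129 ± 4.04 CPM (SD, n = 3 mice each). On the side of high B2m the 4 genes summed to 327 CPM in WT 1 against 206 and 175 CPM in PYK2 KO 3 and 4. On the other side they summed to 310 and 314 CPM in WT 5 and 6 against 200.2 CPM in PYK2 KO 2. Each side holds a single library of one genotype, and the genes were chosen for being lower in these PYK2 KO libraries, so nothing is read from these values. In bulk RNA, fewer cells that carry class II transcripts and less class II RNA per cell cannot be told apart.

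**Figure D3:**
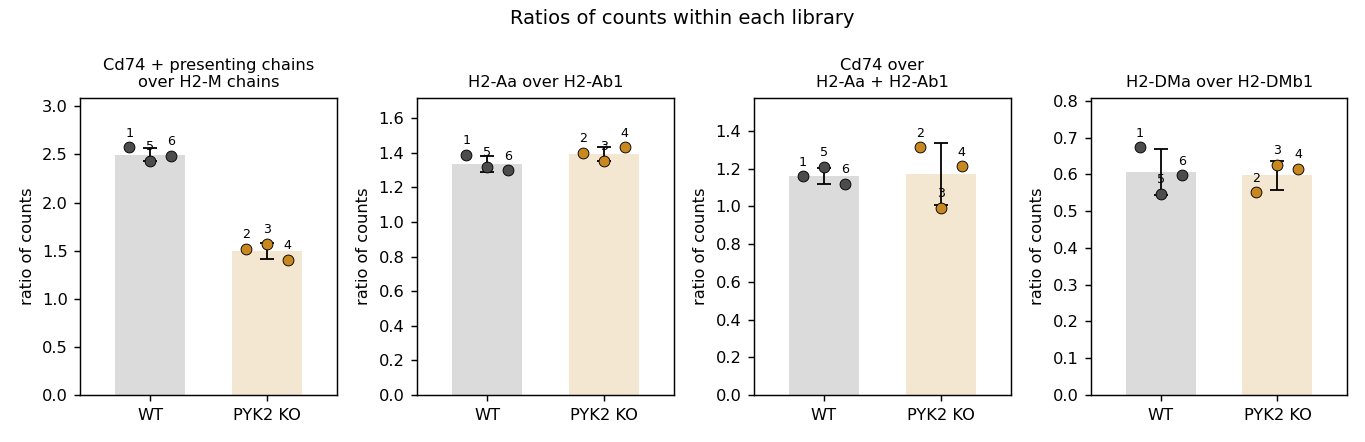
Ratios of counts within each library (vertical axes, linear, from 0) for WT and PYK2 KO BMDMs. Points are libraries with the replicate number, bars means and whiskers SD (n = 3 mice). The ratio of Cd74, H2-Aa, H2-Ab1 and H2-Eb1 to the H2-M chains is lower in every PYK2 KO library than in every WT library. Its panel is titled Cd74 + presenting chains over H2-M chains. The genes of this ratio were grouped by these same values. The other 3 ratios overlap.

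Ciita, on chromosome 16 from 10480059 to 10528418 on the plus strand, was barely detected. It had 11, 6 and 4 counts in WT 1, 5 and 6 and 15, 8 and 2 counts in PYK2 KO 2, 3 and 4, or 2.81, 1.68 and 1.40 CPM and 4.81, 2.77 and 0.596 CPM. The highest and the lowest library were both PYK2 KO. In the same order of libraries the 4 lower genes summed to 327, 310 and 314 CPM in WT and to 200.2, 206 and 175 CPM in PYK2 KO cells, and with so few Ciita counts no relation between them can be read. Pooled over the libraries of a genotype, 21 counts in WT and 25 in PYK2 KO BMDMs gave a ratio of 1.32 (exact 95% interval 0.707 to 2.47, for counting error only). That interval leaves out the spread between mice, which was wide in PYK2 KO BMDMs, and no difference in Ciita was detectable at this depth. In a fit without the filter on low counts the log2 fold change was 0.40 with a standard error of 0.48.

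H2-DMb2 and H2-Oa were at the limit of detection. H2-DMb2, the alternative β chain of H2-M (chromosome 17, 34143307 to 34151555, plus strand), had 2, 5 and 0 counts in WT 1, 5 and 6 and 1 count in each PYK2 KO library. Its transcripts share a stretch of 221 bases with those of the neighbouring H2-DMb1, and one of 34 bases within the last 500 bases, nearest the 3′ end that the method reads, so its few counts may be split between the genes and are uncertain. H2-Oa, the α chain of H2-O (chromosome 17, 34092340 to 34095234, plus strand), had 5, 2 and 3 counts in WT and 6, 1 and 4 counts in PYK2 KO BMDMs. The pooled ratio of PYK2 KO to WT was 0.474 (exact 95% interval 0.0790 to 2.07) for H2-DMb2 and 1.22 (0.469 to 3.19) for H2-Oa, so no difference was detectable at this depth. Its partner H2-Ob was as low, with 4, 2 and 2 counts in WT and 3, 2 and 5 counts in PYK2 KO BMDMs, and H2-Eb2 had none.

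Levels across the 6 libraries were next compared with the pattern of Cd74, using the root mean square difference of log2 CPM after each gene was centred on its own mean. Of the 9814 other tested genes, H2-Eb1 ranked 3 with a difference of 0.108, H2-Aa 5 with 0.116 and H2-Ab1 7 with 0.136, while H2-DMa and H2-DMb1 ranked 3854 and 4111. The 5 genes outside the class II group with the smallest differences were Apobec3, a cytidine deaminase that restricts retroviruses, Dusp5, a nuclear phosphatase of ERK, Llgl2, a cell polarity protein, Mfge8, a secreted bridge between apoptotic cells and phagocytes, and Letmd1, a mitochondrial protein. Apobec3 was at 102 ± 4.53 CPM in WT against 69.7 ± 3.59 CPM in PYK2 KO cells (SD, n = 3 mice each). Mfge8 was at 301 ± 5.80 and 208 ± 29.4 CPM, and Letmd1 at 42.4 ± 5.40 and 25.0 ± 2.52 CPM (SD, n = 3 mice each). Dusp5 and Llgl2 had at most 14 and 23 counts in a library. These ranks rest on 6 libraries and on the genotype difference by which Cd74 was chosen, and they describe a resemblance in level alone.

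The other genes of the pathway were taken from 8 lists of 78 genes, of which 75 were in the table and 61 were tested. None of the 61 was called over all genes by edgeR, DESeq2 or limma voom, and 5 had an unadjusted p under 0.05 in edgeR, beside 592 (6.03%) of all tested genes. These 5, named after their values were seen, were Creb1, Ezh2, Cd274, Gbp2 and Cd38. Their log2 fold changes were 0.73, 0.33, -0.36, 0.85 and 1.01.

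Proteins that bind or open class II promoters are encoded by genes that were all measurable. The 12 genes of the enhanceosome and of CIITA partners had a median log2 fold change of 0.04. Smarca4, the ATPase of the BAF remodelling complex, was at 145 ± 2.31 CPM in WT against 152 ± 9.55 CPM in PYK2 KO cells (SD, n = 3 mice each). Rfxap, a subunit of RFX, had a log2 fold change of -0.05 (95% interval -0.31 to 0.22), Nfya, a subunit of NF-Y, -0.01 (-0.31 to 0.28), and the histone acetyltransferase Ep300 0.01 (-0.19 to 0.21). The 12 tested regulators of Ciita had a median of -0.04. Among them Spi1, which encodes PU.1, was at 397 ± 34.7 and 351 ± 62.3 CPM, and Irf8, its partner in myeloid cells, at 278 ± 16.0 and 279 ± 16.2 CPM (SD, n = 3 mice each). Ifngr1, a chain of the interferon gamma receptor, and its kinase Jak1 had log2 fold changes of -0.11 and 0.08.

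Of 12 genes of the interferon gamma response 8 were tested, the median of their log2 fold changes was 0.20, and none of the 8 was called. Irgm1 and Igtp, GTPases induced by interferon, had log2 fold changes of 0.20 (95% interval -0.08 to 0.48) and 0.21 (-0.11 to 0.52), and Nlrc5, the regulator of MHC class I that is related to CIITA, 0.11 (-0.25 to 0.47). Gbp2 was at 4.72 ± 0.768 CPM in WT against 8.60 ± 1.25 CPM in PYK2 KO cells, and Cd38 at 4.02 ± 0.447 and 8.20 ± 1.61 CPM (SD, n = 3 mice each), with adjusted p = 0.51 and 0.38 in edgeR's test. Cxcl9 and Iigp1, which interferon gamma strongly induces, had 0 counts in all 6 libraries.

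Genes that act on class II molecules after their synthesis were examined next. The 10 genes of antigen processing and class II traffic that were tested had log2 fold changes from -0.11 to 0.28, with a median of -0.06, and none was called. Ctss, the protease that removes the last part of CD74, had a log2 fold change of -0.07 (95% interval -0.22 to 0.08), and the lysosomal proteases Ctsd and Lgmn had -0.08 and -0.09. Cst3, an inhibitor of cathepsins, had 0.03 (-0.17 to 0.22). For CD74 as a surface receptor, its ligand Mif was at 460 ± 39.3 and 480 ± 41.7 CPM and its co-receptor Cd44 at 91.7 ± 6.23 and 95.5 ± 12.3 CPM (SD, n = 3 mice each). The 4 tested genes of that list had a median of 0.06 and the 6 tested genes of costimulation one of -0.02. Of the latter, Icam1, an adhesion ligand for T cells, was at 73.3 ± 5.36 and 83.3 ± 13.6 CPM, and Cd274, which encodes PD-L1, at 28.0 ± 5.53 and 21.9 ± 2.59 CPM (SD, n = 3 mice each).

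Neighbours of the class II genes on chromosome 17 were measured as well, and the 9 tested of 12 had log2 fold changes with a median of 0.01, and values from -0.07 to 0.07. Psmb8, a subunit of the immunoproteasome, was at 505 ± 16.4 CPM in WT against 515 ± 16.5 CPM in PYK2 KO cells (SD, n = 3 mice each). Tap1, a subunit of the peptide transporter for MHC class I, had a log2 fold change of 0.07 (95% interval -0.15 to 0.28), and Tapbp, its adaptor, 0.03 (-0.14 to 0.19). Brd2 had -0.03 (-0.20 to 0.14) and overlaps the start of H2-DMa on the opposite strand. The antisense genes Gm20513 and BC051537, which overlap H2-Eb1 and H2-Oa, had 0 counts in all libraries.

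**Figure D4:**
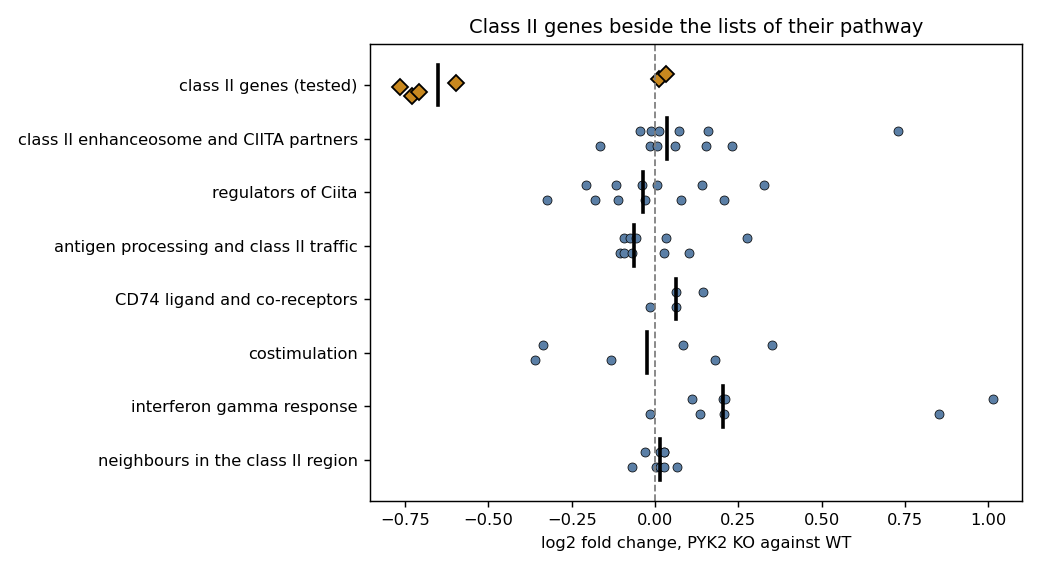
Log2 fold change of PYK2 KO against WT BMDMs (horizontal axis) for the 6 tested class II genes (diamonds) and the 61 tested genes of 7 pathway lists (circles, one row per list). The vertical strokes are medians, at -0.65 for the class II genes and between -0.06 and 0.20 for the lists. The diamonds of Cd74, H2-Aa, H2-Ab1 and H2-Eb1 lie left of all circles, and those of H2-DMa and H2-DMb1 lie among them.

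Markers of other cells that carry class II molecules were examined beside these values, and no gene of any of 6 marker lists was called by edgeR, DESeq2 or limma voom. Of 12 dendritic cell markers, 7 had 0 counts in all libraries, including the defining genes Flt3, Zbtb46, Xcr1 and Clec9a. The summed level of the list was 7.56 to 10.98 CPM in WT against 6.26 to 8.98 CPM in PYK2 KO cells, and the 2 tested genes, Batf3 and Itgax, had log2 fold changes of -0.47 (95% interval -1.21 to 0.27) and -0.08 (-0.88 to 0.72). Of the B cell markers, Cd79a, Ms4a1, Pax5 and Ebf1 had 0 counts in all libraries. The summed level of that list, nearly all of it Ighm, was 382 to 411 CPM in WT against 347 to 390 CPM in PYK2 KO cells, and Ighm and Cd79b had log2 fold changes of -0.11 and -0.24. Their part in the lower class II level was not tested.

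Macrophage markers summed to 29422 to 30127 CPM in WT against 30587 to 31562 CPM in PYK2 KO cells, and the median of their log2 fold changes was 0.03. Among markers of other myeloid cells, 1 of the 2 tested monocyte markers and 2 of the 6 tested neutrophil markers had an unadjusted p under 0.05, as did 6.03% of all tested genes. Ly6c2 was at 8.70 ± 1.81 and 13.4 ± 0.723 CPM and S100a9 at 44.9 ± 22.5 and 82.3 ± 27.8 CPM (SD, n = 3 mice each), with adjusted p = 0.59 and 0.54 in edgeR's test, and Mpo had a log2 fold change of 1.19. S100a9 parted the libraries as B2m did, with 70.7, 93.2 and 103 CPM in WT 1, PYK2 KO 3 and PYK2 KO 4. It was at 30.0, 34.0 and 50.7 CPM in WT 5, WT 6 and PYK2 KO 2. The other tested neutrophil markers, Ngp, S100a8, Ltf and Camp, had log2 fold changes of 0.19, 0.10, -0.09 and -0.26. Ccr2, which was too low to be tested, had 12, 7 and 4 counts in WT 1, 5 and 6 and 3, 6 and 1 counts in PYK2 KO 2, 3 and 4. The monocyte list summed to 19.6 to 23.0 CPM in WT against 22.5 to 27.7 CPM in PYK2 KO cells and the neutrophil list to 129 to 181 and 133 to 232 CPM. Of 8 T cell markers 3 had no counts, 1 was tested, and the list summed to 5.61 to 9.80 CPM in WT against 5.07 to 7.06 CPM in PYK2 KO cells. The part of these cells in the class II values was not tested.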

How the data were processed

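BMDM RNA of 3 WT and 3 PYK2 KO mice was sequenced by a bulk form of MARS-seq, which reads the 3′ ends of polyadenylated transcripts. With the UTAP pipeline the authors aligned reads and built a count matrix, and deposited raw whole-number counts per gene. The submitters' processing notes name cutadapt, STAR and mm10. The annotation, the strand setting and whether molecular identifiers were collapsed are not given in the sources used here, so counts may not be independent molecules and intervals based on counts cover counting error only. The matrix had 0 columns from samples other than these.

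Counts were filtered with filterByExpr, scaled by TMM and tested over 9815 genes in R 4.3.3 with edgeR 4.0.16 (quasi-likelihood, genotype alone, Benjamini-Hochberg adjusted p under 0.05). CPM values are scaled by the TMM-adjusted total of the tested genes, and ratios of counts between genes were compared across libraries only, since counts are not per length and do not rank genes by level. Standard errors are the log2 fold change over the root of F. The 3 genes removed by the filter were compared by pooled counts with an exact binomial interval. Genotypes came from the sample labels. Alternatives were other scalings and filters, the likelihood ratio test, DESeq2 1.42.0, limma voom 3.58.1, 2 covariates taken from the libraries themselves, and leaving out each library. The scripts were tested on simulated data.

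The class II genes, the lists and the alternatives were chosen with earlier results of these data known. The text names all 9 of them, Ptk2b, B2m, the genes past the threshold and up to 4 abundant genes of each list, and the 5 genes most like Cd74. Other named genes and the promoter motifs were chosen after their values or letters were seen. Some markers are not reported here. Positions are from GENCODE M21 (GRCm38).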

Additional observations from a re-analysis of the deposited data

How the results depend on the processing

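Because the class II genes were chosen on these libraries, their calls here show dependence on the settings and add no support. Cd74 was called under all 10 alternatives and in all 6 fits that left out a library, with log2 fold changes from -0.74 to -0.72 and from -0.79 to -0.67. H2-Aa and H2-Ab1 were called under the 10 alternatives, but in 4 and 3 of the 6 fits with a library left out. H2-Aa and H2-Ab1 were lost without PYK2 KO 2 and without PYK2 KO 4, and H2-Ab1 also without WT 5, so that between 1 and 3 of the genes were called. H2-Eb1 was called with no filter on low counts, with the likelihood ratio test and with a covariate for the leading component of residual variation. H2-DMa ranged from -0.03 to 0.06 and H2-DMb1 from -0.0042 to 0.07 with a library left out. The median of the 4 lower genes lay between -0.77 and -0.65, and no pathway gene was called, in any of these fits. Over all genes the number called was 159 with no filter, 45 with the likelihood ratio test and 62 with that covariate, and between 14 and 34 with a library left out, with 14 without PYK2 KO 4 and 15 without WT 5 or PYK2 KO 2. For each of these, the cause was not tested. The median log2 fold change of all genes was at most 0.0114 under the other scalings. No paired analysis was made because the labels give no pairing between WT libraries 1, 5 and 6 and PYK2 KO libraries 2, 3 and 4. Depth limits Ciita, H2-DMb2 and H2-Oa, with at most 15 counts in a library.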
